A study of Mus musculus with 145 samples.

Results

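Reprogramming of spermatogonial stem cells (SSCs) was followed here through 8 genes, *Lin28a*, *Lin28b*, *Trim71*, *L1td1*, *Igf2bp1*, *Igf2bp2*, *Igf2bp3* and *Hmga2*, taken by name out of the 28692 genes in the count tables. They belong to, or are targets of, the LIN28 and let-7 circuit, and 7 of the 8 code for RNA-binding proteins, while *Hmga2* codes for a chromatin protein that binds DNA. Modified STRT-seq, which counts unique molecular identifiers (UMIs) per gene in single cells, gave 46 libraries of SSCs under reprogramming, taken between days 0 and 27 of the original condition, together with 1 library each of the germline-derived pluripotent stem cell (gPSC) line gPSC-1 at passage 1 (p1) and passage 15 (p15) and of mouse embryonic stem cells (ESCs). The RNA arm of scTrio-seq2 gave 8 samples treated with the 5 chemicals called 5C and 5 samples treated with the vehicle DMSO.

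All animals and lines were of the strain B6D2F1 (C57BL/6 female, DBA/2 male), and the SSCs came from male pups at 5.5 days post partum that carried an *Oct4*-EGFP or EGFP transgene. SSCs were cultured with EGF, bFGF, GDNF and ESGRO and reprogrammed on fibronectin and mitomycin C-inactivated mouse embryonic fibroblast feeders, so every group shared the feeder layer, and the original condition had no added chemical. The 5C mixture held SGC707, vitamin C, EGCG, daphnetin and tauroursodeoxycholic acid. gPSCs and ESCs were grown on feeders in N2B27 with 2iL. The 5C samples came from days 12, 14 and 16 and the DMSO samples from days 0, 20 and 24, so treatment and day cannot be told apart, and the SSC1-4 sum of DMSO replicate 5 mixed 7 cells of day 0 with 38 of day 24. gPSC-1 was 1 line. Cells had been picked by hand from SSC- and PSC-like colonies, which makes the number of cells in a class a property of the collection.

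Cells carried the classes that the authors had assigned. SSC1-4 denotes the starting SSC clusters, RPG1, RPG2, RPG3 and RPG4 the steps of the successful branch towards pluripotency, and Fibroblast, Early-pluripotency, Meiotic and Neural the cells outside that branch. A sum of UMIs was formed for each class in each library that contributed 5 or more such cells, which gave 36 sums for SSC1-4, 7 for RPG1, 3 for RPG2, 8 for RPG3, 2 for RPG4, 5 for Fibroblast, 3 for Early-pluripotency, 6 for Meiotic and 12 for Neural. Levels are given as CPM, the UMIs of a gene scaled to a total of 1000000 in every sum. The 46 libraries held 15975410 to 34609591 UMIs, the gPSC libraries 10833720 and 14035664, the ESC library 14807169, the 5C samples 5880774 to 10723044 and the DMSO samples 3888311 to 8059618. The RPG2 and Early-pluripotency sums all came from batch B2 and the RPG4 and Fibroblast sums from batch B1, and no cell name occurred in more than 1 library. Within SSC1-4 the median of *L1td1* was 0.291 CPM in B1 and 1.48 in B2, and that of *Hmga2* was 6.26 and 2.25. The RPG1 sums were of days 18, 20 and 23 and the RPG2 sums of days 12 and 14. In a contrast of RPG2 with RPG1, class and day therefore cannot be told apart. In 5 of the 46 libraries the cells carried 2 library names, among them day 14 replicates 5 and 6 and day 20 replicate 8, where most SSC1-4 cells had one name and most RPG2 or all RPG3 cells the other, so that a comparison inside these libraries is partly one between 2 collections of cells.

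The markers followed the class names in most cases. The paper named its classes by genes that include *Zbtb16*, *Dazl*, *Pou5f1* (*Oct4*), *Nanog* and *Sox2* of these lists, so this is no independent check. The summed level of 7 pluripotency markers was 112 to 415 CPM in SSC1-4, 317 to 820 in RPG1, 2280 to 2980 in RPG2, 2993 to 3674 in RPG3, 1324 to 1401 in RPG4 and 3093 to 3476 in the gPSC and ESC libraries. The summed level of 5 SSC markers went the other way, from 1256 to 2039 CPM in SSC1-4 to 310 to 474 in RPG2 and 240 to 260 in RPG4. In RPG1 the median log2 difference of these 5 genes from SSC1-4 was -0.07. The cluster named Fibroblast 1 held 1327 to 1465 CPM of the SSC markers, as much as SSC1-4, beside 228 to 384 CPM of 8 feeder markers, whereas Fibroblast 2 held 2234 to 4794 CPM of the feeder markers. Because classes were defined on the same transcriptomes that are compared below, a contrast between classes describes those classes.

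LIN28A and LIN28B bind let-7 precursors and hold back the mature miRNA, and LIN28A recruits the uridylyl transferases that tail these precursors. In turn let-7 represses *Lin28a*, *Lin28b*, *Trim71* and *Hmga2* through sites in their 3′ untranslated regions. TRIM71 is a ubiquitin ligase that also binds and represses mRNAs, L1TD1 is an RNA-binding protein derived from a LINE-1 open reading frame and is known from pluripotent cells, and the IGF2BP proteins bind mRNAs such as *Igf2* and *Actb* and govern their stability and location. The circuit is known from both germ cells and pluripotent cells.

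The let-7 miRNAs are shown because 7 of the 8 members carry matches to their shared seed. RefSeq lists 9 mature 5p miRNAs of the mouse family, and all 9 carry the same bases 2 to 8, printed in capitals. The following 3 show how the rest of the sequence varies.
let-7a: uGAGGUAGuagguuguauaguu
let-7g: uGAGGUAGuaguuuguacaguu
miR-98: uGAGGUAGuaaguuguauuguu
Mature let-7 is not a product that these libraries count, and its level was not measured.

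The 7 bases complementary to that seed, CTACCTC, were searched on the sense strand of the longest annotated 3′ untranslated region of each gene (GENCODE vM21, GRCm38). They occurred in 7 of the 8 members, with 4 sites each in *Lin28b*, *Trim71*, *Igf2bp1* and *Hmga2*, 2 in *Lin28a*, 1 each in *Igf2bp2* and *Igf2bp3*, and none in *L1td1*, whose region is 364 bases long. Of 21153 genes with an annotated region, 10.1% held at least 1 such site and 0.175% held 3 or more, and the median region was 1084 bases long, shorter than those of the other 7 members (1784 to 6337). Of the 20 sites in members, 13 were followed by A. A match is a string of letters and no evidence of binding. The first site of each of the 7 members follows, each on the minus strand and read 5′ to 3′, with the match in capitals.
*Lin28a*, chr4:134005188-134005210: cacagcctgttgaaCTACCTCat
*Lin28b*, chr10:45381021-45381043: cccgggcgggaagtCTACCTCat
*Trim71*, chr9:114512471-114512493: acattgcctaagtcCTACCTCag
*Igf2bp1*, chr11:95961777-95961799: ctgtgcgaagtaaaCTACCTCaa
*Igf2bp2*, chr16:22059472-22059494: cacacaaataaaagCTACCTCag
*Igf2bp3*, chr6:49086786-49086808: gcatttttactcaaCTACCTCag
*Hmga2*, chr10:120364223-120364245: ccgacattcaatttCTACCTCag

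**Figure D1:**
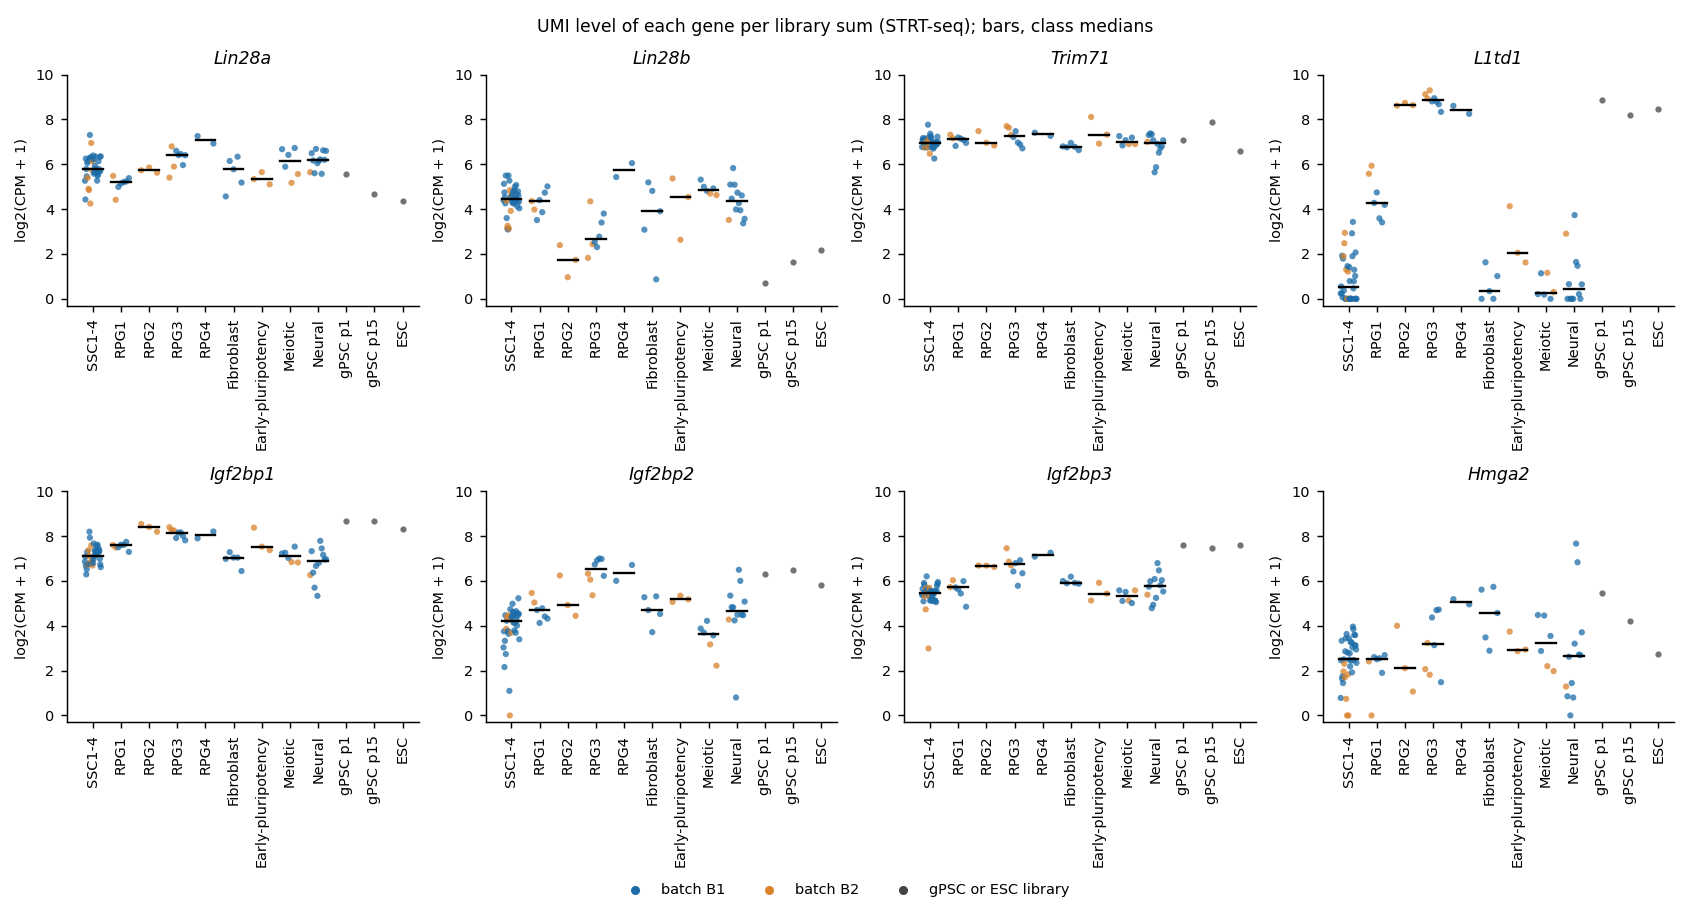
Level of each of the 8 genes, as log2(CPM + 1), in every library sum of each class and in the gPSC and ESC libraries. Points are sums coloured by batch and bars are class medians. *L1td1* lies near 0 in SSC1-4 and between 303 and 628 CPM in RPG2, RPG3 and RPG4, *Lin28b* dips in RPG2 and RPG3, and *Trim71* is nearly level.

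*L1td1* (ENSMUSG00000087166.9, chr4:98726734-98738480, plus strand) separated the classes more widely than any other member. It was listed at 0 in 13 of the 36 SSC1-4 sums, with a median of 0.423 and a highest value of 9.77 CPM. In RPG1 it lay between 9.61 and 60.03 CPM with a median of 18.4, so that the lowest RPG1 sum lay just under the highest SSC1-4 sum. The RPG2 sums gave 391, 396 and 426 CPM, the RPG3 sums 322 to 628 with a median of 466, and the RPG4 sums 303 and 389. The established lines read 463 CPM in gPSC p1 (exact Poisson 95% interval 452 to 474, which covers counting error only, as do all such intervals here), 293 (283 to 304) in gPSC p15 and 351 (342 to 361) in ESCs. With 1 library each, the lines were not tested. In such sums fewer cells of a type and less RNA per cell cannot be told apart, and the share of cells with a UMI is therefore given further on.

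Genes were compared between classes with edgeR's quasi-likelihood test over all 20030 genes tested, and a call needed both a Benjamini-Hochberg adjusted p under 0.01 and a fold change of at least 2.72 (1.44 on the log2 scale, 1 on the natural-log scale). The libraries are not stated to come from separate cultures, so these p-values measure the spread between the libraries, which may be technical. Against SSC1-4, *L1td1* rose in RPG1 by 4.18 ± 0.47 on the log2 scale (SE, 7 against 36 sums, edgeR adjusted p = 7.88e-10), where it was the 1 member called, while 1.41% of all genes were called. The rise reached 8.24 ± 0.52 in RPG2 (3 sums, edgeR adjusted p = 3.24e-24), 8.51 ± 0.47 in RPG3 (8 sums, edgeR adjusted p = 3.74e-29), a 364.5-fold difference, and 7.84 ± 0.56 in RPG4 (2 sums, edgeR adjusted p = 5.66e-21).

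Step by step, the second increase fell between RPG1 and RPG2, by 4.07 ± 0.83 (edgeR adjusted p = 7.22e-05). By the DESeq2 Wald test this difference was 4.06 and was not called (adjusted p = 0.0136). The RPG2 sums were of earlier days than the RPG1 sums. From RPG2 to RPG3 the difference was 0.27 with a 95% interval of -1.4 to 1.94, and from RPG3 to RPG4 it was -0.67 with an interval of -2.69 to 1.35, neither of them called. The call in RPG1 rested on comparing libraries with each other. In the 2 libraries that held sums of both classes, *L1td1* read 6.57 CPM in SSC1-4 and 11 in RPG1 on day 20, and 9.77 and 9.61 on day 23. The day 20 library is one of those with 2 names, and its SSC1-4 sum took 24 of 26 cells from one name and its RPG1 sum 34 of 52 from the other. With the library as a block the difference was 0.99 and was not called, whereas RPG2 and RPG3 kept their calls at 5.82 and 5.61.

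SSC1-4 cells of libraries that also held later cells carried more *L1td1*. In the 4 SSC1-4 sums from libraries with an RPG2 or RPG3 sum it lay between 4.57 and 9.77 CPM, and in the other 32 between 0 and 3.19, so the ranges did not overlap. Of these 4 libraries, 3 were among those with 2 names. The summed pluripotency markers moved with it, at 224 to 415 CPM in the 4 sums and 112 to 370 in the 32. Their part in the *L1td1* values was not tested.

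Outside the successful branch *L1td1* stayed below every RPG2, RPG3 and RPG4 sum. The highest Early-pluripotency and Neural sums lay within the RPG1 range of 9.61 to 60.03 CPM. Early-pluripotency sums gave 2.08, 3.15 and 16.5 CPM, and the difference from SSC1-4 of 2.25 ± 0.68 was not called (edgeR adjusted p = 0.0745). No member was called there, nor by the DESeq2 Wald test, while edgeR called 0.275% of all genes and 3029 genes had an unadjusted p below 0.05. With batch as a covariate edgeR called 2 genes in place of 55. The sums of Meiotic cells held 0 to 1.24 CPM, those of Fibroblast cells 0 to 2.09 and those of Neural cells 0 to 12.3. Of the 20 clusters and lines, Early-pluripotency 2, with 1 library, came next after RPG1 at 16.5 CPM (14.8 to 18.3), near the RPG1 median of 18.4.

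*Lin28a* and *Lin28b* code for the paired let-7 blockers, and they did not run in parallel along the branch. *Lin28a* (ENSMUSG00000050966.9, chr4:134003330-134018841, minus strand) had a median of 54.2 CPM in SSC1-4 with a range of 18 to 157, and of 35.9 in RPG1, where all 7 sums fell between 20.3 and 43.6. The RPG2 sums gave 48.3, 52.1 and 56.8 CPM, the RPG3 sums 41.4 to 110 with a median of 83.8, and the RPG4 sums 120 and 152. Every one of these values lay within the range of the SSC1-4 sums. *Lin28a* was not called between STRT-seq classes, with log2 differences from SSC1-4 of -0.79 ± 0.23 in RPG1 (edgeR adjusted p = 0.0324), -0.01 ± 0.32 in RPG2, 0.60 ± 0.20 in RPG3 (edgeR adjusted p = 0.0082, under the fold threshold) and 1.19 ± 0.34 in RPG4 (edgeR adjusted p = 0.0052, also under it). From RPG1 to RPG2 it differed by 0.78 ± 0.36 (edgeR adjusted p = 0.0946), and with the library as a block it was called at 1.47 (edgeR adjusted p = 0.00837), although no library held sums of both classes.

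*Lin28b* (ENSMUSG00000063804.8, chr10:45376620-45486395, minus strand) lay between 7.51 and 44.2 CPM in SSC1-4 with a median of 21.1, and between 10.4 and 31.2 in RPG1 with a median of 19.5. In RPG2 it dropped to 0.947, 2.34 and 4.24 CPM, below every SSC1-4 sum. The RPG3 sums ran from 2.55 to 19.3 CPM with a median of 5.31, and the RPG4 sums were 42.1 and 65.2. Of the RPG4 sums 1 lay within the range of SSC1-4, and the difference of 1.26 ± 0.49 from SSC1-4 was not called (edgeR adjusted p = 0.0423). The lines were low, with 0.641 CPM in gPSC p1 (0.293 to 1.22), 2.12 in gPSC p15 (1.35 to 3.19) and 3.58 in ESCs (2.68 to 4.68).

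Against SSC1-4, *Lin28b* fell in RPG2 by 3.01 on the log2 scale (SE 0.62, edgeR adjusted p = 5.04e-05). It was called there with *L1td1*, so 2 of 8 members changed in a comparison in which 17% of all genes were called. From RPG1 to RPG2 it fell by 2.81 (SE 0.65, edgeR adjusted p = 4.58e-04), again with *L1td1* and beside a background of 12.1% of genes. All RPG2 sums were of batch B2, and within B2 alone the differences, neither of them called, were -2.48 against SSC1-4 (edgeR adjusted p = 0.0195) and -2.7 against RPG1 (edgeR adjusted p = 0.0558). With sums per batch, day and class both calls were lost, at -2.75 against SSC1-4 (edgeR adjusted p = 0.0181) and -2.42 against RPG1 (edgeR adjusted p = 0.065). With the library as a block the difference from RPG1 was -1.58 and was not called (edgeR adjusted p = 0.245).

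In RPG3, *Lin28b* was lower than in SSC1-4 by 1.22 on the log2 scale (edgeR adjusted p = 0.00115, under the fold threshold), and between RPG2 and RPG3 it differed by 1.79 ± 0.62 (edgeR adjusted p = 0.064). No member was called from RPG2 to RPG3 by edgeR or by the DESeq2 Wald test, where edgeR called 1.87% of all genes and 4023 had an unadjusted p below 0.05. From RPG3 to RPG4 *Lin28b* rose by 2.48 ± 0.54 (edgeR adjusted p = 7.09e-04), the 1 member called of 8 against 3.52% of all genes. This rested on 2 libraries of day 20, which both held RPG3 and RPG4 sums, and *Lin28b* read 4.79 and 3.95 CPM in RPG3 and 42.1 and 65.2 in RPG4 there. Without day 20 replicate 2 the rise was 2.07 and was not called (edgeR adjusted p = 0.0992), where the 1 RPG4 sum left is assumed to vary like the sums of the other classes. With sums per batch, day and class it was 2.17, not called (edgeR adjusted p = 0.0777). Those 2 RPG4 sums also held less of the pluripotency markers than RPG3, and *Zfp42* and *Dppa5a* were lower by 4.06 and 4.02 on the log2 scale.

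In the 7 libraries with sums of both RPG1 and RPG3, *Lin28b* was lower in RPG3 in 7 of 7, and *Lin28a*, *L1td1*, *Igf2bp1*, *Igf2bp2* and *Igf2bp3* were higher in RPG3 in 7 of 7. *Hmga2* was higher in 6 and *Trim71* in 4.

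**Figure D2:**
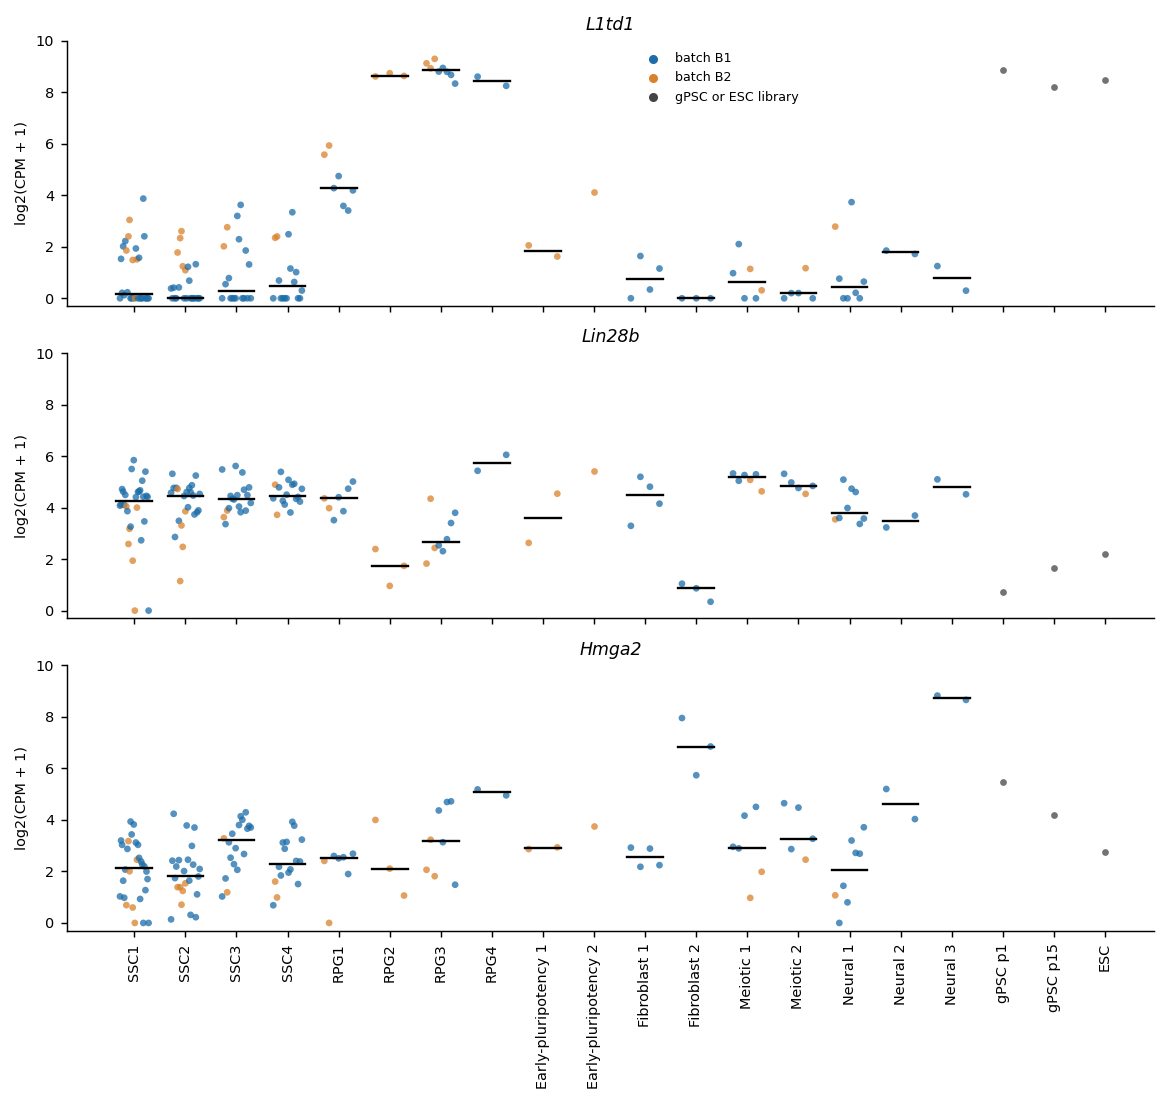
Levels of *Lin28b*, *L1td1* and *Hmga2*, as log2(CPM + 1), in the library sums of each of 17 clusters and in the 3 line libraries, coloured by batch. *Lin28b* is at 0.947 to 4.24 CPM in RPG2 and 42.1 and 65.2 in RPG4, *L1td1* is high in RPG2, RPG3, RPG4 and the lines, and *Hmga2* is highest in Neural 3 and Fibroblast 2.

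The other clusters filled in the order of the LIN28 genes. Fibroblast 2, whose 3 sums carry the feeder markers, held 0.269, 0.824 and 1.06 CPM of *Lin28b*. It held 1.08 and 4.79 CPM of *Lin28a* on days 8 and 10 but 79.9 (69.0 to 91.9) on day 27. Neural 3, with 2 libraries of day 27, held 33.2 and 21.9 CPM of *Lin28b*, above the 8.38 and 11.9 of Neural 2 in the same libraries. Early-pluripotency 2 held 41.3 CPM of *Lin28b* (38.7 to 44.1) and 39.9 of *Lin28a* (37.3 to 42.7).

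*Trim71* (ENSMUSG00000079259.2, chr9:114507133-114564369, minus strand), the let-7 target with an RNA-silencing role of its own, was nearly level. SSC1-4 sums lay between 75.3 and 216 CPM with a median of 124, RPG1 between 112 and 158, RPG2 between 113 and 177 and RPG3 between 103 and 207, and RPG4 gave 153 and 169. All of these overlapped SSC1-4. It was called in no comparison, and its largest log2 difference between SSC1-4 and a class of the branch was 0.50 ± 0.12 in RPG3 (edgeR adjusted p = 2.83e-04, under the fold threshold). The lowest values were in Fibroblast 2, with 12.1 and 13.3 CPM on days 8 and 10 and 109 on day 27, and the highest was 273 (266 to 280) in Early-pluripotency 2.

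Of the 3 *Igf2bp* genes, *Igf2bp2* and *Igf2bp3* were called higher than SSC1-4 in RPG3 and RPG4, and none was called in RPG2. *Igf2bp2* (ENSMUSG00000033581.17, chr16:22059009-22163299, minus strand) had a median of 17.8 CPM in SSC1-4 with a highest sum of 36.4, and 25 in RPG1. The RPG2 sums gave 20.7, 29.4 and 74.7 CPM, the RPG3 sums 40.0 to 127 with a median of 92.1, and the RPG4 sums 63.1 and 104, so RPG3 and RPG4 did not overlap SSC1-4. It rose in RPG3 by 2.65 ± 0.25 (edgeR adjusted p = 2.11e-16) and in RPG4 by 2.3 ± 0.42 (edgeR adjusted p = 7.28e-06). The call in RPG4 was lost with the library as a block (2.38, edgeR adjusted p = 0.0338) and without day 20 replicate 2 (1.94, edgeR adjusted p = 0.021). In RPG2, where its sums overlapped SSC1-4, it differed by 1.41 ± 0.39 (edgeR adjusted p = 0.0023), just under the fold threshold, and it was called with batch as a covariate (1.59) and with sums per batch, day and class (1.66).

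*Igf2bp3* (ENSMUSG00000029814.10, chr6:49085223-49214957, minus strand) had a median of 43.0 CPM in SSC1-4 with a highest sum of 72.6. The RPG2 sums gave 97.3, 102 and 102 CPM, above every SSC1-4 sum, while RPG3 ran from 54.0 to 174 with a median of 106 and RPG4 gave 135 and 152. It rose in RPG3 by 1.5 ± 0.15 (edgeR adjusted p = 2.40e-14) and in RPG4 by 1.72 ± 0.26 (edgeR adjusted p = 1.24e-07). The rise in RPG3 stood close to the fold threshold, and it was not called within batch B1 (1.26), without day 12 replicate 2 (1.37) or with library sizes alone in place of TMM (1.28). In RPG2 the difference of 1.39 ± 0.23 (edgeR adjusted p = 4.16e-07) was under the fold threshold, and with the library as a block it was called at 1.46.

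*Igf2bp1* (ENSMUSG00000013415.9, chr11:95957163-96005940, minus strand) stayed under the fold threshold in every class of the branch. SSC1-4 sums lay between 77.2 and 292 CPM with a median of 137, RPG1 between 156 and 212, RPG2 between 291 and 370, RPG3 between 223 and 335 with a median of 284, and RPG4 gave 237 and 294. The differences from SSC1-4 were 1.38 ± 0.21 in RPG2 (edgeR adjusted p = 6.04e-08) and 1.18 ± 0.14 in RPG3 (edgeR adjusted p = 2.53e-11), and the RPG3 sums overlapped SSC1-4. Since all RPG2 sums were of batch B2, the fits that take account of batch bear on this, and there it was called in RPG2 with batch as a covariate (1.45), with sums per batch, day and class (1.48) and within B2 (1.48), and in RPG3 within B2 (1.49). Its levels in the lines were 411 CPM in gPSC p1 (400 to 421), 409 in gPSC p15 (397 to 422) and 322 in ESCs (313 to 331). *Igf2bp3* was at 194, 176 and 192 CPM and *Igf2bp2* at 79.2, 88.4 and 55.9 in the same 3 libraries.

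With *L1td1*, *Igf2bp2* and *Igf2bp3* made up the 3 of 8 members called in RPG3, where 25.6% of all genes were called, and in RPG4, where 13.8% were. A share of 25.6% would give about 2 of 8, so the count in RPG3 lay close to its background. In the main fit the median log2 difference of the 8 members from SSC1-4 was higher at each step of the branch (RPG1 0.16, RPG2 0.83, RPG3 1.2, RPG4 1.49), beside medians of -0.05, -0.52, -0.25 and -0.54 over all genes tested. With the library as a block the members' median in RPG3 was not above that in RPG2. Step by step the members' median in the main fit was 0.78, 0.44 and 0.04 from RPG1 to RPG4, beside -0.28, 0.12 and -0.27 over all genes. Size factors of DESeq2 in place of TMM moved the median of all genes by over 0.1 only in the RPG4 contrasts, to -0.39 against SSC1-4 and -0.15 against RPG3. Library sizes alone, the scale of CPM and an alternative added after the data had been seen, moved it by -0.17 in RPG2, -0.21 in RPG3, -0.17 from RPG1 to RPG2 and 0.23 from RPG3 to RPG4, where 469 genes were then called higher and 245 lower, in place of 348 and 357.

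**Figure D3:**
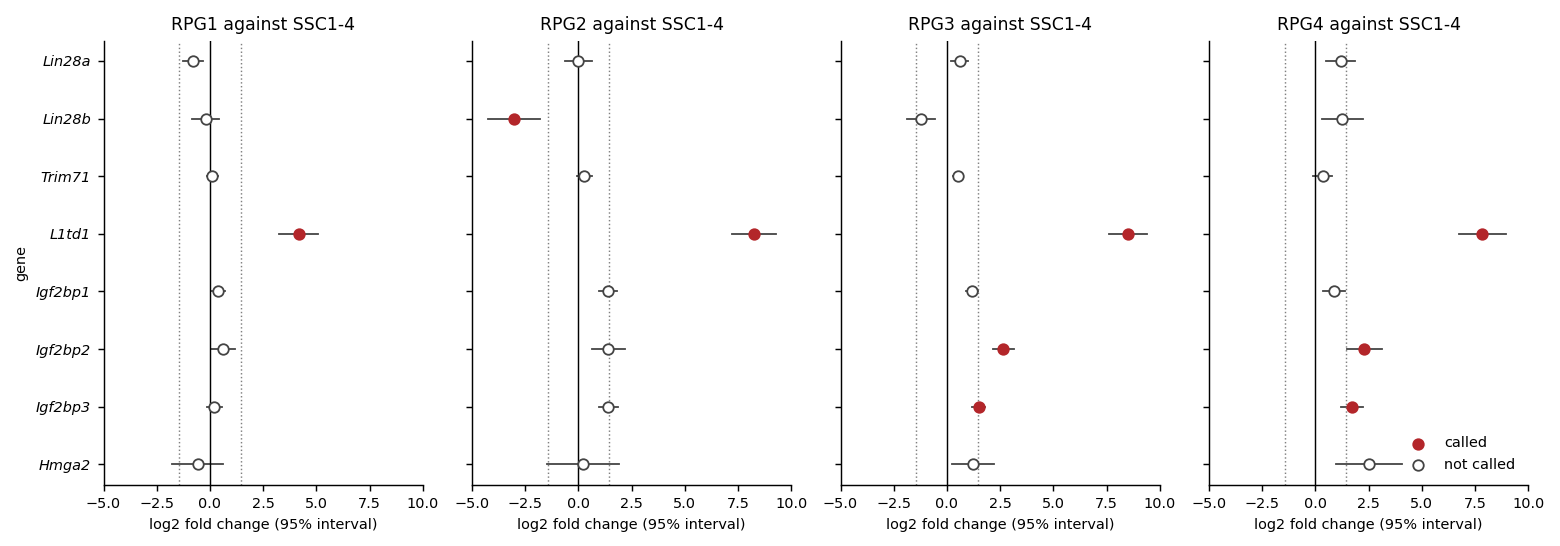
Log2 fold change of each gene in RPG1, RPG2, RPG3 and RPG4 against SSC1-4 with its 95% interval from edgeR. Filled points passed the call rule and open points did not. *L1td1* is called in all 4 panels, *Lin28b* is called lower in RPG2, and *Igf2bp2* and *Igf2bp3* are called in RPG3 and RPG4.

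*Hmga2* (ENSMUSG00000056758.14, chr10:120361275-120476469, minus strand), the chromatin protein among the let-7 targets, reached its highest levels outside the branch. In SSC1-4 it ranged from 0 to 14.6 CPM with a median of 4.64, in RPG1 from 0 to 5.45, and in RPG3 from 1.8 to 25.4 with a median of 8.09. RPG2 gave 1.09, 3.32 and 15 CPM, and RPG4 gave 30.001 and 35.3, both above every SSC1-4 sum. Against SSC1-4 the difference was 1.23 ± 0.51 in RPG3 (edgeR adjusted p = 0.0347) and 2.51 ± 0.79 in RPG4 (edgeR adjusted p = 0.0114), and neither was called. The RPG4 difference was called with DESeq2 size factors in place of TMM (2.65, edgeR adjusted p = 0.00654) and with sums per batch, day and class (3.83, edgeR adjusted p = 1.13e-04), which hold 1 RPG4 sum of day 20 and 1 of day 27. The RPG3 difference was called with batch as a covariate (1.45, edgeR adjusted p = 0.00804).

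*Hmga2* rose in Fibroblast by 2.24 ± 0.56 (5 sums, edgeR adjusted p = 0.0041) and in Neural by 2.38 ± 0.43 (12 sums, edgeR adjusted p = 3.70e-05). It was the 1 member called of 8 in each, beside 3.8% of all genes in Fibroblast and 2.52% in Neural, and 1 subcluster carried each rise. Neural 3 held 404 and 453 CPM in its 2 libraries against 15.4 and 35.8 in Neural 2. Fibroblast 2 held 114, 247 and 52.3 CPM on days 8, 10 and 27, against 3.53 to 6.60 in Fibroblast 1. In an alternative added after the data had been seen, leaving out the Neural 3 cells gave 0.43 (edgeR adjusted p = 0.541), and leaving out the Fibroblast 2 cells gave -0.22. The Fibroblast call was also lost without day 10 replicate 1 (1.94) and without day 27 replicate 5 (1.90), each of which gave a Fibroblast 2 sum.

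The feeder markers stood high in both of these clusters, at 1042 to 1095 CPM in Neural 3 and 2234 to 4794 in Fibroblast 2, against 13 to 152 in SSC1-4. Whether feeder cells contributed to *Hmga2* there was not tested. Neural 3 also held much of the *Igf2bp* mRNAs, with 342 and 352 CPM of *Igf2bp1*, 168 and 185 of *Igf2bp2* and 206 and 215 of *Igf2bp3*, the highest levels of *Igf2bp2* and *Igf2bp3* in any cluster or line. With the library as a block, *Hmga2* differed by -0.93 in Neural and by 2.04 in Fibroblast (edgeR adjusted p = 0.485), and was called in neither. In the lines it was at 43.0 CPM in gPSC p1 (39.6 to 46.5), 17.4 in gPSC p15 (15 to 20.0) and 5.67 in ESCs (4.52 to 7.02).

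In Meiotic cells no member was called by edgeR or by the DESeq2 Wald test, where edgeR called 0.424% of all genes and 2972 genes had an unadjusted p below 0.05. *Igf2bp2* differed by 0.90 ± 0.24 in Neural (edgeR adjusted p = 0.0062), under the fold threshold, with Neural 3 again the cluster where it stood highest.

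Detection in single cells was compared after each cell had been thinned to 50000 UMIs, since shares depend on depth. A UMI of *L1td1* was found in 57.1% of 312 RPG1 cells (exact binomial 95% interval 51.4 to 62.6), 100% of RPG2 cells, 99.6% of RPG3 cells and 87.9% of 33 RPG4 cells (71.8 to 96.6). It was found in 2.23 to 5.08% of the cells of the clusters SSC1 to SSC4. In Fibroblast 2, the cluster with the most feeder markers, it was found in 2.7% of 37 cells (0.0684 to 14.2). The median depths before thinning were 238901 UMIs in RPG1, 149268 in SSC1 and 220987 in Fibroblast 2. The intervals cover counting error only, since they pool cells of several libraries, and classes were not tested on them. Cells under 50000 UMIs were left out, 21 in RPG1, 153 in SSC1, 6 in SSC4 and 2 in Fibroblast 2. At 100000 UMIs the shares were 75.8% in RPG1, 4.05 to 10.2% in SSC1 to SSC4, and 0 of 31 Fibroblast 2 cells, where the floor of 3 allows up to 9.68% of cells with a UMI (exact binomial 95% interval 0 to 11.2). Without thinning they were 89.5%, 9.03 to 15.2% and 2.56%. Early-pluripotency 2 reached 47.4% of 76 cells (35.8 to 59.2), against 5.08% in Early-pluripotency 1, and its interval overlapped that of RPG1. Without thinning it reached 94.8%.

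*Lin28b* was detected in 34.7 to 41.5% of cells in SSC1 to SSC4, 35.3% in RPG1, 11.1% of 45 cells in RPG2 (3.71 to 24.1), 20.1% in RPG3 and 48.5% of 33 cells in RPG4 (30.8 to 66.5). Fibroblast 2 gave 8.11% (1.70 to 21.9) and gPSC p1 2.17% (0.055 to 11.5), and their intervals overlapped that of RPG2. *Lin28a* was found in 76.2 to 81.1% of cells in SSC1 to SSC4. The share was lower in RPG1 and RPG2, at 63.1% and 57.8%, and stood at 83.9% in RPG3 and 93.9% in RPG4, against 18.9% in Fibroblast 2. The share for *Igf2bp2* went from 24.4 to 48.4% in the SSC clusters to 78.7% in RPG3 and 87.9% in RPG4, yet Fibroblast 2 had 75.7% and Neural 3 had 93.1%. *Hmga2* was found in every one of 58 Neural 3 cells (93.8 to 100), in 64.9% of Fibroblast 2 cells and in 9.29 to 17.1% of SSC cells.

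**Figure D4:**
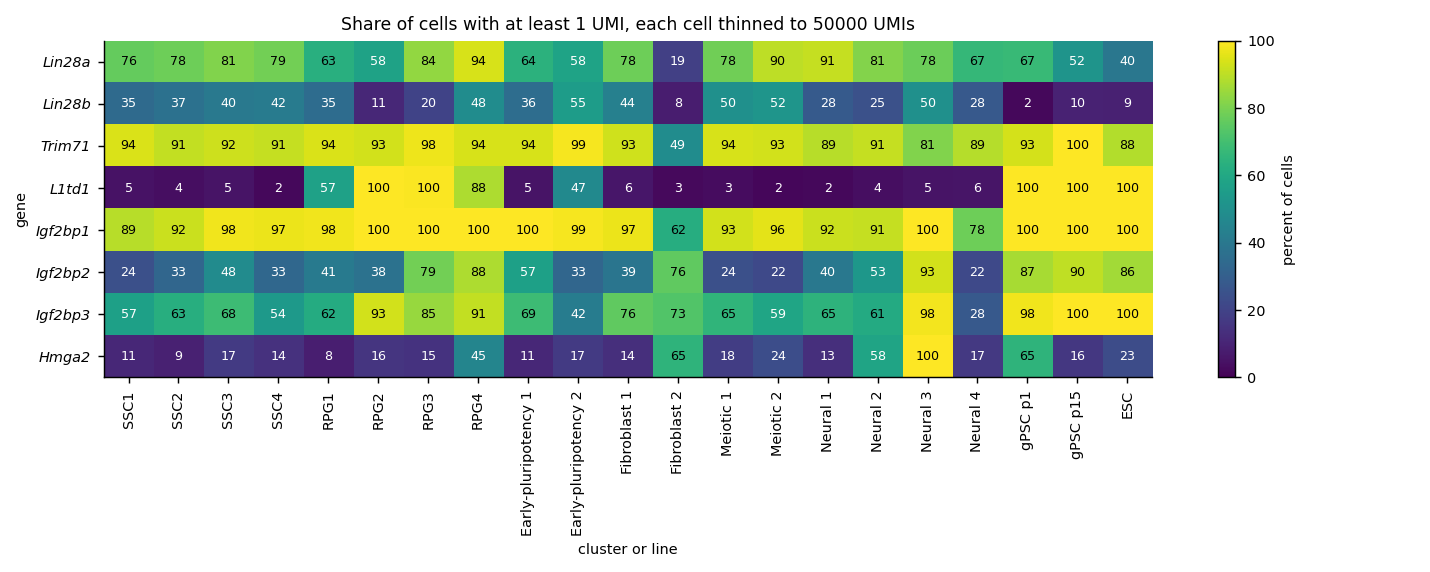
Share of cells, in percent, with at least 1 UMI of each gene after each cell had been thinned to 50000 UMIs, by cluster and line. *L1td1* goes from 2.23 to 5.08% in the SSC clusters to 57.1% in RPG1 and 99.6% in RPG3, and *Hmga2* reaches 100% in Neural 3.

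The partners of the circuit were taken from lists drawn up by hand. Of 12 genes that process let-7 or act with it, *Ago2*, the slicing Argonaute, was higher in RPG3 than in SSC1-4 by 3.61 ± 0.31 and *Khsrp*, which aids let-7 maturation, by 1.82 ± 0.17 (edgeR adjusted p = 3.52e-18 and 9.83e-16), 2 rose and none fell beside the 25.6% of all genes called there, and the list median was 0.54. The uridylyl transferase genes *Zcchc11* and *Zcchc6* were not called there. In RPG2, with 17% of all genes called, the same list had 2 higher and none lower with a median of 0.78, in RPG4, with 13.8%, 2 higher (*Ago2* 4.09, *Prkra* 2.39) and none lower with a median of 0.86, and in RPG1 none either way.

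Of 20 further genes known as let-7 targets, 5 rose and 2 fell in RPG3, again beside 25.6% of all genes, with a median of 0.66. A share of 7 in 20 is near that background. *Myc* rose by 4.46 ± 0.46 and the cyclin gene *Ccnd1* by 2.16 ± 0.22, while the related cyclin gene *Ccnd2* was lower by -2.77 ± 0.22, each called by edgeR. The list had 6 higher and 3 lower in RPG2 (17% of all genes, list median 1.18), 7 higher and 1 lower in RPG4 (13.8% of all genes, list median 0.65) and 1 higher, *Myc* at 2.56, in RPG1 (1.41% of all genes, list median -0.04). Of these 20 genes 13 held a CTACCTC site.

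The 6 genes known as targets of TRIM71 had 1 higher in RPG3, beside the 25.6% of all genes called there, *Plxnb2* at 1.5, and 1 lower, *Mbnl1* at -1.69. The 5 mRNAs bound by IGF2BP proteins had 1 higher, *Cd44* at 2.83, and 2 lower, the imprinted *Igf2* at -3.42 and *H19* at -1.66, and *Igf2* rose from RPG3 to RPG4 by 3.26 ± 0.81 (edgeR adjusted p = 0.00415). Of 6 RNA-binding genes of the germ line, 5 fell in RPG3, against the same 25.6%, with a list median of -2.99, among them *Nanos3* (-3.63), *Nanos2* (-3.32), *Ddx4* (-3.19) and *Dazl* (-2.80). *Nanos3* was also lower in RPG1 (-1.6), the 1 gene of that list called there beside 1.41% of all genes, and fell from RPG2 to RPG3 by 3.94 on the log2 scale. *Dazl* and *Ddx4* belong to the SSC markers too, of which 4 of 5 fell in RPG3 and 1, *Etv5*, rose. With the library as a block, 0 of 18899 genes were called in RPG1, so *Myc* and *Nanos3* were not called there either, at 1.33 and -0.18. The block also ended the calls of *Plxnb2*, *Mbnl1* and *Etv5* in RPG3 and of *Prkra* in RPG4 with their signs kept, while *Cd44* in RPG3 turned to -1.13 (edgeR adjusted p = 0.65).

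Genes whose level followed a member across 17 clusters and 3 lines were ranked among 14963 genes by Pearson correlation of mean log2(CPM + 1). These 20 points share libraries, so the correlations are descriptive. *L1td1* was matched by *Tdgf1* (r = 0.99), *Platr10* (0.98) and *Nanog* (0.98), where *Nanog* is a core pluripotency factor and *Tdgf1* codes for the Nodal co-receptor Cripto. *Lin28b* was matched by *Spata24* (0.92), *Jph1* (0.89) and *Rbm24* (0.88), and *Lin28a* by *Osgepl1* (0.86), *Plxnb1* (0.85) and *Ctnnbl1* (0.80). *Trim71* followed *Nup160* (0.93), *Xpnpep3* (0.91) and *Drosha* (0.91). *Igf2bp1* followed *Nap1l1* (0.92), *Nf2* (0.91) and *Fubp3* (0.91), *Igf2bp2* followed *Fads1*, *Wbp5* and *Tm7sf2* (0.93 each), and *Igf2bp3* followed *Rpl10.ps3*, *Echs1* and *Kcns3* (0.96 each). *Hmga2* went with *Ccdc102a* (0.90), *Runx1t1* and the proteoglycan gene *Vcan* (0.89 each). Among the members themselves the closest pair was *Igf2bp2* and *Igf2bp3* (0.86), then *L1td1* and *Igf2bp1* (0.76), *Lin28a* and *Lin28b* reached 0.63, and the farthest pair was *Lin28b* and *Igf2bp3* (-0.48).

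The scTrio-seq2 samples held the contrast of RPG3 with SSC1-4 in another set of libraries. In 5C samples *L1td1* stood at 397 to 631 CPM in 6 RPG3 sums, and at 19, 21, 5.41, 4.78, 31.3, 27.8, 25.5 and 22.9 CPM in the 8 SSC1-4 sums. In DMSO samples it stood at 376 and 434 CPM in RPG3, and no UMI was found in any of the 3 SSC1-4 sums, which held 12619438 UMIs together. The treatments were thus apart in SSC1-4 and overlapped in RPG3, and the 0 held in both DMSO sums that were of 1 day as well as in the mixed one. The intermediate RPG1 sums read 40.1, 47.2, 57.7 and 46.1 CPM with 5C and 21.2 and 31.1 with DMSO.

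**Figure D5:**
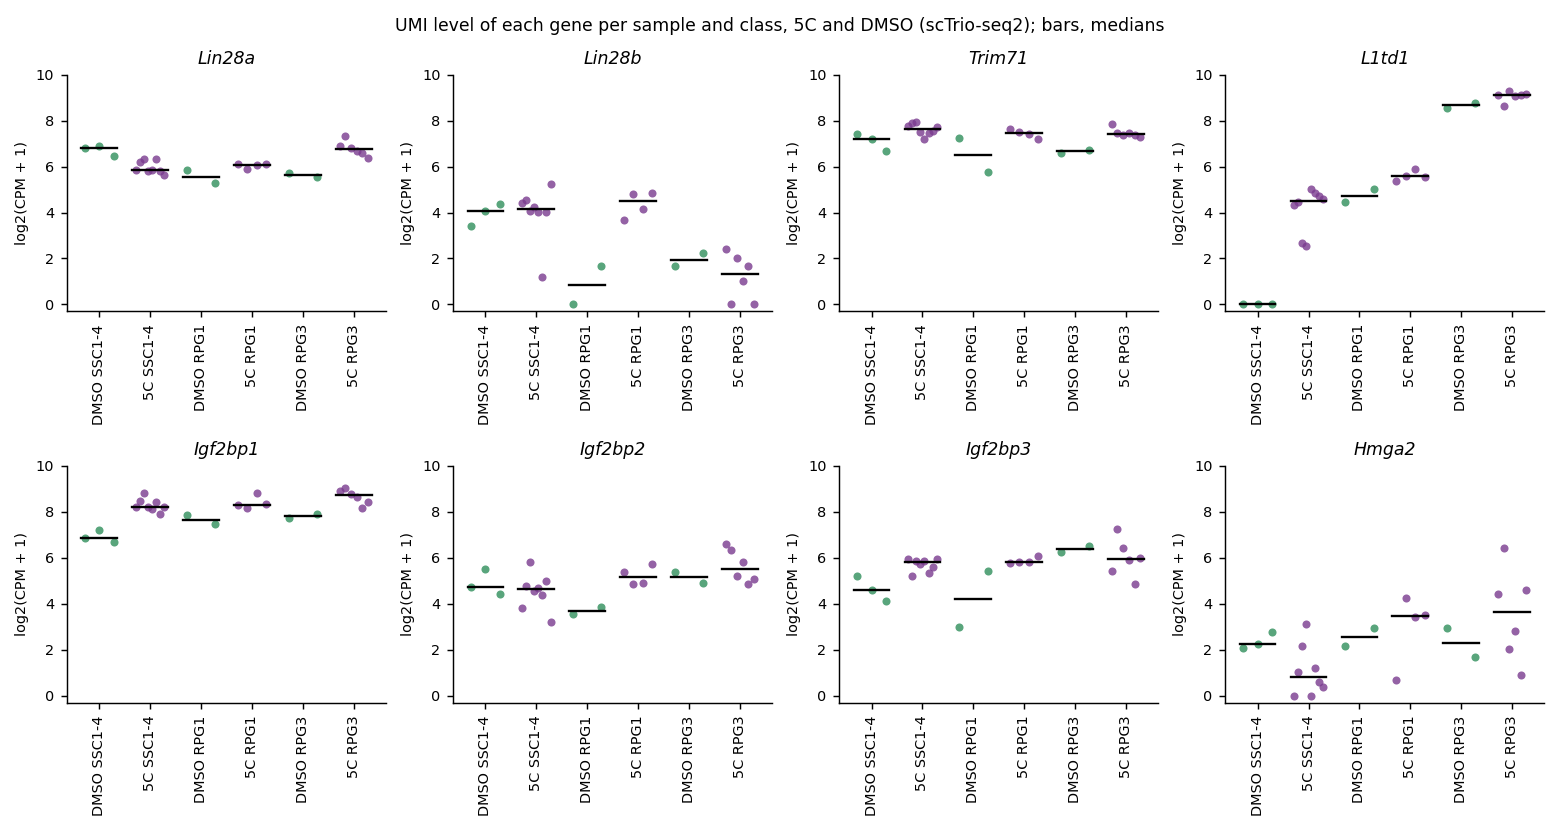
Level of each gene, as log2(CPM + 1), in SSC1-4, RPG1 and RPG3 sums of the 5C and DMSO samples of scTrio-seq2. Points are sample sums and bars are medians. *L1td1* is at 0 in the 3 DMSO SSC1-4 sums and between 376 and 631 CPM in all RPG3 sums, and *Lin28a* is higher in RPG3 than in SSC1-4 with 5C but not with DMSO.

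The scaling mattered more in these samples than in STRT-seq. Fitted differences are on the TMM scale and CPM are not, and between RPG3 and SSC1-4 the median of all genes was -0.06 with 5C and -0.14 with DMSO after TMM but -0.34 and -0.83 with library sizes alone. The calls moved with it, from 1251 higher and 1286 lower to 968 and 1778 with 5C, and from 1457 and 1404 to 803 and 2695 with DMSO. For the difference between treatments they went from 168 higher and 180 lower to 416 and 101, for 5C against DMSO in RPG3 from 140 and 135 to 485 and 46, and in RPG1 from 36 and 55 to 44 and 27. DESeq2 size factors in place of TMM turned the sign of no member in these contrasts. In the following paragraphs the value with library sizes alone stands beside a member's difference between RPG3 and SSC1-4 where it turns the sign, ends the call or moves the fold by over 1.5 times. Medians over members or lists, and differences of list genes, are given after TMM only.

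Between RPG3 and SSC1-4 *L1td1* rose with 5C by 5.19 ± 0.26 (6 against 8 sums, edgeR adjusted p = 9.49e-16) and with DMSO at least 1702-fold, taking 3 UMIs over the group as the floor (2 against 3 sums, called by edgeR). The contrast differed between treatments by -8.76 ± 1.07 (edgeR adjusted p = 2.36e-06), a size that depends on the prior count because the DMSO SSC1-4 sums were at 0. In the 6 samples of 5C with sums of both classes it was higher in RPG3 in 6 of 6. No DMSO sample gave sums of both classes, since the 2 with RPG3 sums held 2 and 3 SSC1-4 cells, so the DMSO contrast compares different samples.

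*Lin28b* fell in RPG3 with 5C by 2.76 on the log2 scale (SE 0.59, edgeR adjusted p = 2.56e-04), from 1.32 to 36.7 CPM in SSC1-4 to 0 to 4.33 in RPG3. It was lower in RPG3 in 5 of the 6 samples with both sums, and the other one, 5C replicate 6, held 2 UMIs in SSC1-4 and 1 in RPG3, both under the floor of 3. With DMSO it went from 9.69, 15.7 and 19.4 to 2.19 and 3.67 CPM, a difference of -1.65 ± 0.90 (edgeR adjusted p = 0.143), or -2.33 with library sizes alone (edgeR adjusted p = 0.0352), and the treatments differed by -1.12 ± 1.02 (edgeR adjusted p = 0.552). *Hmga2* rose with 5C by 3.67 ± 0.81 (edgeR adjusted p = 3.65e-04), from 0 to 7.82 CPM to 0.873 to 86.1, so the ranges overlapped. The rise of *Hmga2* was 2.84 without 5C replicate 3 and 4.53 without 5C replicate 4, and was called in both. With *L1td1* these were the 3 of 8 members called with 5C, where 18.5% of all genes were called. With the sample as a block only *L1td1*, at 4.98, was called, and *Lin28b* and *Hmga2* did not pass the low-count filter of that fit.

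*Lin28a* behaved differently in the 2 treatments. With 5C it went from 48.6 to 78.7 CPM in SSC1-4 to 81.4 to 160 in RPG3, ranges that did not overlap, and was higher in RPG3 in 6 of 6 samples. The difference of 1.09 ± 0.17 (edgeR adjusted p = 2.77e-06) was under the fold threshold. With DMSO it stood at 110, 118 and 86.8 CPM in SSC1-4 and at 51.2 and 46.2 in RPG3, a difference of -0.41 ± 0.28 after TMM (edgeR adjusted p = 0.245) and of -1.11 with library sizes alone (edgeR adjusted p = 0.00258, under the fold threshold). The 2 contrasts differed by 1.5 ± 0.33 (edgeR adjusted p = 0.00294), and this was called with *L1td1* as 2 of 8 members beside 2.54% of all genes. Without DMSO sample 1, 2 or 4 the call of *Lin28a* was lost, at 1.59, 1.41 and 1.44 (edgeR adjusted p = 0.0239, 0.0516 and 0.0122). Leaving out sample 1 or 2 left 1 DMSO RPG3 sum, which is then assumed to vary like the other sums. Markers moved with this difference between treatments. Of the 7 pluripotency markers 2, *Tdgf1* and *Nanog*, were lower in it (list median -1.33). Of the 5 SSC markers *Ddx4* and *Dazl* were higher and *Etv5* was lower (list median 1.45), and of the 6 germline RNA-binding genes 3 were higher, *Nanos3*, *Ddx4* and *Dazl* (list median 1.78). Within RPG3, 2 of 7 pluripotency markers were lower with 5C (list median -0.74), *Tdgf1* by -1.64 and *Dppa5a* by -1.57. Their part in the *Lin28a* values was not tested.

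With DMSO 3 of 8 members were called in RPG3, *L1td1*, *Igf2bp1* (1.6 ± 0.23, edgeR adjusted p = 8.77e-07) and *Igf2bp3* (2.39 ± 0.43, edgeR adjusted p = 3.60e-05), beside 20.9% of all genes. *Igf2bp1* went from 114, 147 and 102 CPM to 214 and 238, and *Igf2bp3* from 16.2 to 35.9 to 75.1 and 91.3. With library sizes alone *Igf2bp1* differed by 0.91 and was not called, and *Igf2bp3* was called at 1.71. With 5C the same genes differed by 0.65 ± 0.14 (edgeR adjusted p = 2.07e-04) and 0.71 ± 0.26 (edgeR adjusted p = 0.0264), and the differences between treatments of -0.95 (edgeR adjusted p = 0.0182) and -1.69 (edgeR adjusted p = 0.0275) were not called. *Igf2bp2* differed by 1.35 ± 0.33 with 5C (edgeR adjusted p = 0.00117, under the fold threshold) and by 0.90 ± 0.54 with DMSO, or 0.20 with library sizes alone. *Trim71* differed by 0.11 ± 0.13 with 5C and 0.22 ± 0.22 with DMSO, and both signs turned with library sizes alone (-0.17 and -0.47), as in the CPM, which went from 103 to 167 to 95.8 and 104 with DMSO. *Hmga2* stood at 3.18, 3.75 and 5.83 CPM in SSC1-4 with DMSO and at 6.74 and 2.2 in RPG3, which overlapped. The difference of 0.77 ± 1.25 (edgeR adjusted p = 0.658), or 0.08 with library sizes alone, was not called, nor was that between treatments, of 2.9 ± 1.56 (edgeR adjusted p = 0.268). After TMM the members' median was 0.90 with 5C and 0.84 with DMSO, beside -0.06 and -0.14 over all genes tested. Library sizes alone moved the median of all genes by -0.28 with 5C and -0.69 with DMSO. The members' medians therefore hold on the TMM scale only.

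Within SSC1-4, 5C was compared with DMSO in 8 against 3 sums. *L1td1* was at least 68.4-fold higher with 5C, with the same floor, and was the 1 of 8 members called beside 4.91% of all genes. *Igf2bp1* stood at 239 to 450 CPM with 5C and at 102 to 147 with DMSO, without overlap, and differed by 1.37 ± 0.18 (edgeR adjusted p = 6.03e-06, under the fold threshold). *Lin28a* stood at 48.6 to 78.7 CPM with 5C and at 86.8 to 118 with DMSO, again without overlap, and differed by -0.77 ± 0.20 (edgeR adjusted p = 0.0063, under the fold threshold). *Igf2bp3* differed by 0.98 ± 0.28 (edgeR adjusted p = 0.0152). Of the 7 pluripotency markers 2 were called higher with 5C, *Tdgf1* by 6.55 ± 1.06 and *Sox2* by 2.24 ± 0.42, and none lower, 5 of 7 were positive and the list median was 0.50, and their part in the *L1td1* difference was not tested. *L1td1* was at 4.78 and 21 CPM in the 2 samples of 5C without an RPG3 sum, so it was not at 0 there either.

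Within RPG3, *L1td1* differed between 5C and DMSO by -0.01 with a 95% interval of -0.34 to 0.31, and by 0.42 with library sizes alone (edgeR adjusted p = 0.0781), not called. No member was called there by edgeR or the DESeq2 Wald test, where edgeR called 2.41% of all genes and 3311 had an unadjusted p below 0.05. *Lin28a* differed by 0.74 ± 0.27 (edgeR adjusted p = 0.0756), at 81.4 to 160 CPM against 46.2 and 51.2. Within RPG1, 7 of the 8 members could be tested, since *Hmga2* did not pass the low-count filter, and none was called by either tool, where edgeR called 0.973% of all genes and 2067 had an unadjusted p below 0.05. *Lin28b* read 11.9 to 27.7 CPM with 5C, against 0 and 1 UMI in the 2 DMSO sums, and differed by 3.64 ± 1.4 (edgeR adjusted p = 0.123).

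Some genes of the lists were called between treatments. In SSC1-4, beside 4.91% of all genes, these were 1 of 12 that process let-7 or act with it, 3 of 20 let-7 targets, 1 of the 4 TRIM71 targets tested and 1 of 6 germline RNA-binding genes, all higher. There *Ago2* was higher with 5C by 1.86, *Ccnd1* by 2.75, *Ccnd2* by 2.64, *Cdc25a* by 1.5, *Plxnb2* by 2.03 and the Hu-family RNA-binding gene *Elavl2* by 2.26. In RPG3, beside 2.41% of all genes, they were 1 of 12, 2 of 20, none of 4 and 2 of the 5 tested, in the same order. There *Zcchc11*, the uridylyl transferase that LIN28A recruits, was higher with 5C by 1.88 ± 0.40 (edgeR adjusted p = 0.00475), *Myc* by 1.78, *Ccnd2* by 2.99, *Dazl* by 1.72 and *Nanos3* by 5.51. In RPG1, beside 0.973%, 2 of the 18 let-7 targets tested, *Ccnd1* and *Ccnd2*, were higher by 2.04 and 1.76. *Zcchc11* was lower in RPG3 than in SSC1-4 with DMSO (-1.53 ± 0.37), and the contrast of *Ago2* differed between treatments by -1.87 ± 0.42 (edgeR adjusted p = 0.0036), where *Ago2* rose by 4.22 with DMSO and by 2.34 with 5C. It was the 1 of its 12 genes called in that difference, beside 2.54% of all genes. Of the let-7 targets 1 of 20 was lower in it, *Ccnd1* at -3.72. Of the 5 TRIM71 targets tested 2 were lower in it, *Plxnb2* at -2.69 and *Cdkn1a* at -1.85, with a list median of -1.70, beside list medians of 1.36 with DMSO and -0.34 with 5C. These values are after TMM. Library sizes alone moved the median of all genes between RPG3 and SSC1-4 by -0.69 with DMSO and by -0.28 with 5C.

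Some counts of the members may hold reads of neighbours. Annotated genes overlap *Lin28a*, *Trim71* and *Igf2bp3* on the opposite strand, *Igf2bp1* and *Hmga2* are overlapped on both strands, and *Lin28b*, *L1td1* and *Igf2bp2* are free of overlap. Whether reads were assigned by strand is not given in the sources used here, so for the first 5 genes reads from an overlapping gene cannot be told apart.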

How the data were processed

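Transcriptomes were measured by STRT-seq in 46 libraries of SSC reprogramming, 2 gPSC libraries and 1 ESC library, and by scTrio-seq2 in 8 samples of 5C and 5 of DMSO. The methylation files were not used. The tables that the authors deposited hold raw UMI counts, 1 column a cell. Their deposited annotation lists, as a percent, how much of a cell's UMI total was mitochondrial. Barcodes and UMIs had been extracted with UMItools, reads aligned to mm10 with STAR 2.7.2b and assigned to genes with featureCounts 2.0.0. The batch, library and cluster of each cell came from the deposited annotation, and the classes of the scTrio-seq2 cells were predicted by the authors. Of 4544 barcodes, 4464 passed the stated filter of at least 2000 genes and at most 5% mitochondrial UMIs, and the same 4464 were annotated. No doublet removal is given in the sources used here and none was done, since cells had been picked singly. Of 1089 scTrio-seq2 cells, 48 had no class, and the 2242 genes listed in only 1 of the 2 scTrio-seq2 tables were not tested.

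For each library, the cells of a class were summed where there were 5 or more, with groups taken from the labels. Sums of SSC1-4 held 433094 to 34168335 UMIs, those of RPG1 7179664 to 15777564, of RPG2 3534500 to 6415415, of RPG3 1570976 to 17474953 and of RPG4 2518163 to 4966558. edgeR 4.0.16 (TMM, filterByExpr, glmQLFit, glmQLFTest) in R 4.3.3 was fitted once over all STRT-seq classes, once per class for 5C against DMSO, and once over treatment and class for RPG3 against SSC1-4. DESeq2 1.42.0 was an alternative. Scripts were tested on simulated data. Intervals are exact at the 95% level, and a count of 0 has a floor of 3 UMIs. All 8 members and the 3 genes closest to each by correlation are named. The rule allowed up to 4 genes of each list per comparison (the largest fold changes among those called, otherwise the largest of all), of which the text prints a part, and the values of 1 gene are not reported here. The correlation was planned over 18 clusters and the 3 lines, but Neural 4, with 29 cells, gave no sum, which left 17 clusters. Members and lists were chosen with earlier results of these data known. Library sizes alone in place of TMM, within-batch fits and fits without Fibroblast 2 or Neural 3 cells were added after seeing the data.

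Sample numbers of 5C and DMSO did not pair the samples, as deviations of same-numbered SSC1-4 sums correlated at -0.036 to 0.0702 over 3 pairs. Deviations of SSC1-4 and another class from 1 library correlated at 0.109 to 0.174 for RPG1 (2 libraries), 0.118 to 0.133 for RPG3 (2), 0.063 to 0.254 for Meiotic (5) and 0.048 to 0.231 for Neural (10). Sums of different libraries were not correlated for reference, so whether sums of 1 library deviate together was not tested.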

Additional observations from a re-analysis of the deposited data

Results flagged for a closer look

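In 56 groups of 4 to 10 sums, the highest or lowest value was set against the rest with Dixon's test at the 95% level, which chance passes in about 1 of 20 groups, and 4 were marked. All 4 were in 5C samples. The DMSO classes, with 2 or 3 sums each, were too small to be examined. SSC1-4 and Neural of STRT-seq, with 36 and 12 sums, were too large. *Lin28a* stood at 58.69 CPM in the RPG1 sum of 5C replicate 5, while the other 3 sums lay between 66.5 and 68.1. *Trim71* stood at 230.35 CPM in the RPG3 sum of 5C replicate 1, against 155 to 176 in the other 5. *Hmga2* stood at 86.12 CPM in the RPG3 sum of 5C replicate 3, against 0.873 to 23.2, and that value rests on 51 UMIs of 592175. *Hmga2* stood at 7.824 CPM in the SSC1-4 sum of 5C replicate 4, against 0 to 3.54.

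The contrast of RPG3 with SSC1-4 differed between 5C and DMSO by an interaction term for 2 members. For *L1td1* the difference was -8.7573 on the log2 scale (edgeR adjusted p = 2.36e-06), with the DMSO SSC1-4 sums at 0. For *Lin28a* it was 1.5012 (edgeR adjusted p = 0.00294), with RPG3 above SSC1-4 in 6 of 6 samples of 5C and both DMSO RPG3 sums below the 3 DMSO SSC1-4 sums. Treatment and day cannot be told apart in either.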

How the results depend on the processing

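Over 2952 alternatives for single members, 2897 kept the side of the threshold, 25 lost a call, 27 gained one and 3 reversed a called value. The reversals were all of *Hmga2*, at -0.22 in Fibroblast without the Fibroblast 2 cells, and at -0.93 with the library as a replicate block and -0.57 within batch B2 in Neural. Fibroblast had 0 members called by the DESeq2 Wald test (*Hmga2* at 2.3, adjusted p = 0.0147), with the library block (2.04, 0.485), within batch B1 (2.04, 0.0105) and without the Fibroblast 2 cells, and Neural had 0 with the library block, with sums per batch, day and class (*Hmga2* at 1.52, adjusted p = 0.125), within batch B2 and without the Neural 3 cells. RPG1 had 0 with the library block, and 0 of all genes. RPG2 against RPG1 had 1 by the Wald test (*Lin28b*, while *L1td1* was lost at 4.06, adjusted p = 0.0136), 1 with sums per batch, day and class and 1 within B2, RPG2 against SSC1-4 had 4 with batch as a covariate, and RPG4 against RPG3 had 0 with sums per batch, day and class (*Lin28b* at 2.17, adjusted p = 0.0777). RPG3 against SSC1-4 with 5C had 1 with the sample as a replicate block, and 5C against DMSO in SSC1-4 had 2 with the sample number as a replicate block, where *Igf2bp1* was called at 1.49, though those numbers do not pair the samples. The library block changed no other call of a member than those given here and in the report. No block could be fitted to the DMSO contrast or its difference from 5C, since no DMSO sample held both classes, and none was run within RPG1 or RPG3, where 1 number was shared.

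Leaving out 1 library or sample at a time gave 0 to 1 members called in Fibroblast, 2 to 5 in RPG2, 2 to 4 in RPG3, 2 to 4 in RPG4, 0 to 1 from RPG3 to RPG4, 3 to 4 in RPG3 with 5C, 1 to 3 for the difference between treatments and 1 to 2 for 5C against DMSO in SSC1-4, and did not move the other counts. For the STRT-seq contrasts 17 of the 46 libraries were left out in turn. A count that did not move was therefore not tried without the remaining libraries. *Hmga2* in Neural stayed at 2.35 to 2.48 in these fits, against 0.43 without the Neural 3 cells. Members close to the fold threshold made up most of the moves. *Igf2bp1*, *Igf2bp2* and *Igf2bp3* in RPG2 were called in some of these fits at 1.45 to 1.70, *Hmga2* in RPG4 was called without each of 3 libraries at 2.54 to 2.63, and *Lin28b* in RPG3 was called at -1.55 without day 18 replicate 3. The cause of these moves was not tested.

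Counts over all genes moved by over 1.5 times under some alternative in 15 of 17 comparisons. Where they moved, they went to between 0 and 484 from 283 in RPG1, 1868 and 2012 from 3400 in RPG2, 2114 and 2165 from 5122 in RPG3, 7 and 417 from 761 in Fibroblast, 0 and 128 from 55 in Early-pluripotency, 0 and 278 from 85 in Meiotic, 2 and 285 from 504 in Neural, 633 and 1162 from 2424 between RPG1 and RPG2, 31 and 727 from 375 between RPG2 and RPG3, and 342 and 439 from 705 between RPG3 and RPG4. They went to 914 from 2756 in RPG4, 1678 from 2537 in RPG3 with 5C, 556 from 348 for the difference between treatments, and 199 from 91 and 510 to 531 from 275 for 5C against DMSO in RPG1 and RPG3. Thinning cells to 100000 UMIs moved 95 of 168 shares beyond their interval, and 148 were higher than at 50000. Depth limits the low genes, as *Lin28b* and *Hmga2* in RPG2 rest on 34 and 74 UMIs. The Neural 3 sums held 4931 and 1772 UMIs of *Hmga2*.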
